A study of Mus musculus with 7 samples.

Results

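Growth factor ligands and receptor tyrosine kinases were examined in MN9D cells, a mouse hybrid of midbrain neurons and neuroblastoma that makes dopamine. The genes were taken by their array symbol: those of the FGF, PDGF, VEGF, IGF, ErbB and neuregulin families, together with Egfr, Kdr, Flt1, Flt3, Flt4, Met, Hgf and Kit. A few family genes were not analysed here. This gave 66 of the 12393 genes that had a probe set annotated to a single symbol, with 119 probe sets among them. Where a gene had several probe sets, the one with the highest mean signal stands for it. A total of 29 encode secreted ligands, 18 receptors, 10 binding proteins and 4 intracellular FGF homologous factors. The other 5 share only the name: Fgfr1op2, the RNA-binding protein genes Igf2bp1 and Igf2bp3, and the transcripts Igf1os and Igf2os, which overlap growth factor genes on the opposite strand.

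The series holds 4 arrays labelled as MN9D cells made to overexpress mouse hemoglobin, alpha and beta chain, and 3 arrays of MN9D cells with an empty vector, against which they were set. Both groups are the same line carrying a vector. Neither the promoter of the construct nor whether a line was 1 clone is given in the labels. An additional control array did not meet the submitters' quality standard and was not analysed here. The submitters asked which biological effects globin has in these cells. The values are log2 RMA signals from Affymetrix mouse 430A 2.0 arrays, and a difference is the mean of the globin-labelled arrays minus that of the empty vector arrays, with limma's standard error after ±. Because the signal of a probe set depends on its probes as well as on its transcript, signals were compared between arrays and not between genes.

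Growth factor receptors of this class are membrane proteins that pair up when a ligand binds, phosphorylate one another on tyrosine and pass the signal on through adaptors to the Ras-ERK and PI3-kinase cascades. FGFs act through FGF receptors with heparan sulphate as a cofactor, PDGFs through the alpha and beta PDGF receptors, and VEGFs through Flt1, Kdr and Flt4. The IGF binding proteins hold IGFs outside the cell and set how much reaches the IGF1 receptor. In dopaminergic neurons FGFs, IGF1 and neuregulins are known as survival and differentiation factors.

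The labels were checked first. Of 5 adult alpha-globin probe sets 3 rose, by 35.8-fold to 142-fold, and of 3 adult beta-globin probe sets 1 rose, by 1.26-fold, so the arrays are called globin-labelled here. The groups separated on the first principal component, with 81.5% of the variance. Empty vector array 1 and globin-labelled array 4 shared an end of the second, with 5.96%. Of 14 neuronal and dopaminergic markers 11, among them Th, Ddc, Stmn3 and Uchl1, had a signal above the 25th percentile of all probe sets, and the dopamine transporter gene Slc6a3 and the neurofilament genes Nefl and Nefm lay below it. Of the 14, 2 rose, Ina and Snap25 (0.51 and 0.40). The 4 that fell were Stmn2, Tubb3, Th and Ddc (-1.20, -0.80, -0.70 and -0.22). The summed linear signal of the 14 was 36700 to 38800 in the globin-labelled arrays, against 38400 to 42000 in the empty vector arrays. The 7 astrocyte markers summed to 694 to 738 in the globin-labelled arrays, against 712 to 728 in the empty vector arrays, the lowest limma adjusted p among them being 0.0683 for Gja1. Aqp4, Aldh1l1, Slc1a3 and Gja1 among them lay below the 25th percentile. Of 7 oligodendrocyte markers Mbp passed, with a fall on the probe set used, while of its other 7 probe sets 4 fell and 1 rose. The 7 markers had sums of 2500 to 2590 in the globin-labelled arrays, against 2740 to 2780 in the empty vector arrays. Cnp alone held 1710 to 1780 of this in the globin-labelled arrays, against 1810 to 1860 in the empty vector arrays. The other 6 summed to 788 to 820, against 918 to 936. Mog, Olig1 and Olig2 lay below the 25th percentile. Whether replicates were separate cultures is not in the labels, so p-values cover only the spread among these arrays, which may be technical. In such bulk RNA, fewer cells that make a transcript and less transcript per cell cannot be told apart.

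Of the 66 genes, 16 rose and 8 fell in the globin-labelled arrays at a limma adjusted p under 0.05, and 42 did not pass. The fall of Vegfc was by far the largest change, at 7.07-fold, and it was followed by rises of 2.98-fold for Fgf13, 2.02-fold for Igfbp6 and 1.95-fold for Pdgfrb. Across all 12393 genes 40.7% passed, 20.6% upward and 20.1% downward, against 36.4% of the 66, 24.2% upward and 12.1% downward. The share that changed was therefore near that of the array. A fold of at least 1.5 with a call was reached by 8 of the 66 genes, or 12.1%, against 5.28% of all genes, and 7 of these 8 rose. The median difference was 0.07 over the 66 genes and 0.02 over all genes. The globin-labelled and empty vector arrays did not overlap for 26 of the 66 genes, or 39.4%, against 45.7% of all genes. With globin-labelled array 4 and empty vector array 1 both left out, an alternative added once the values were known, 16 rose and 4 fell.

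**Figure D1:**
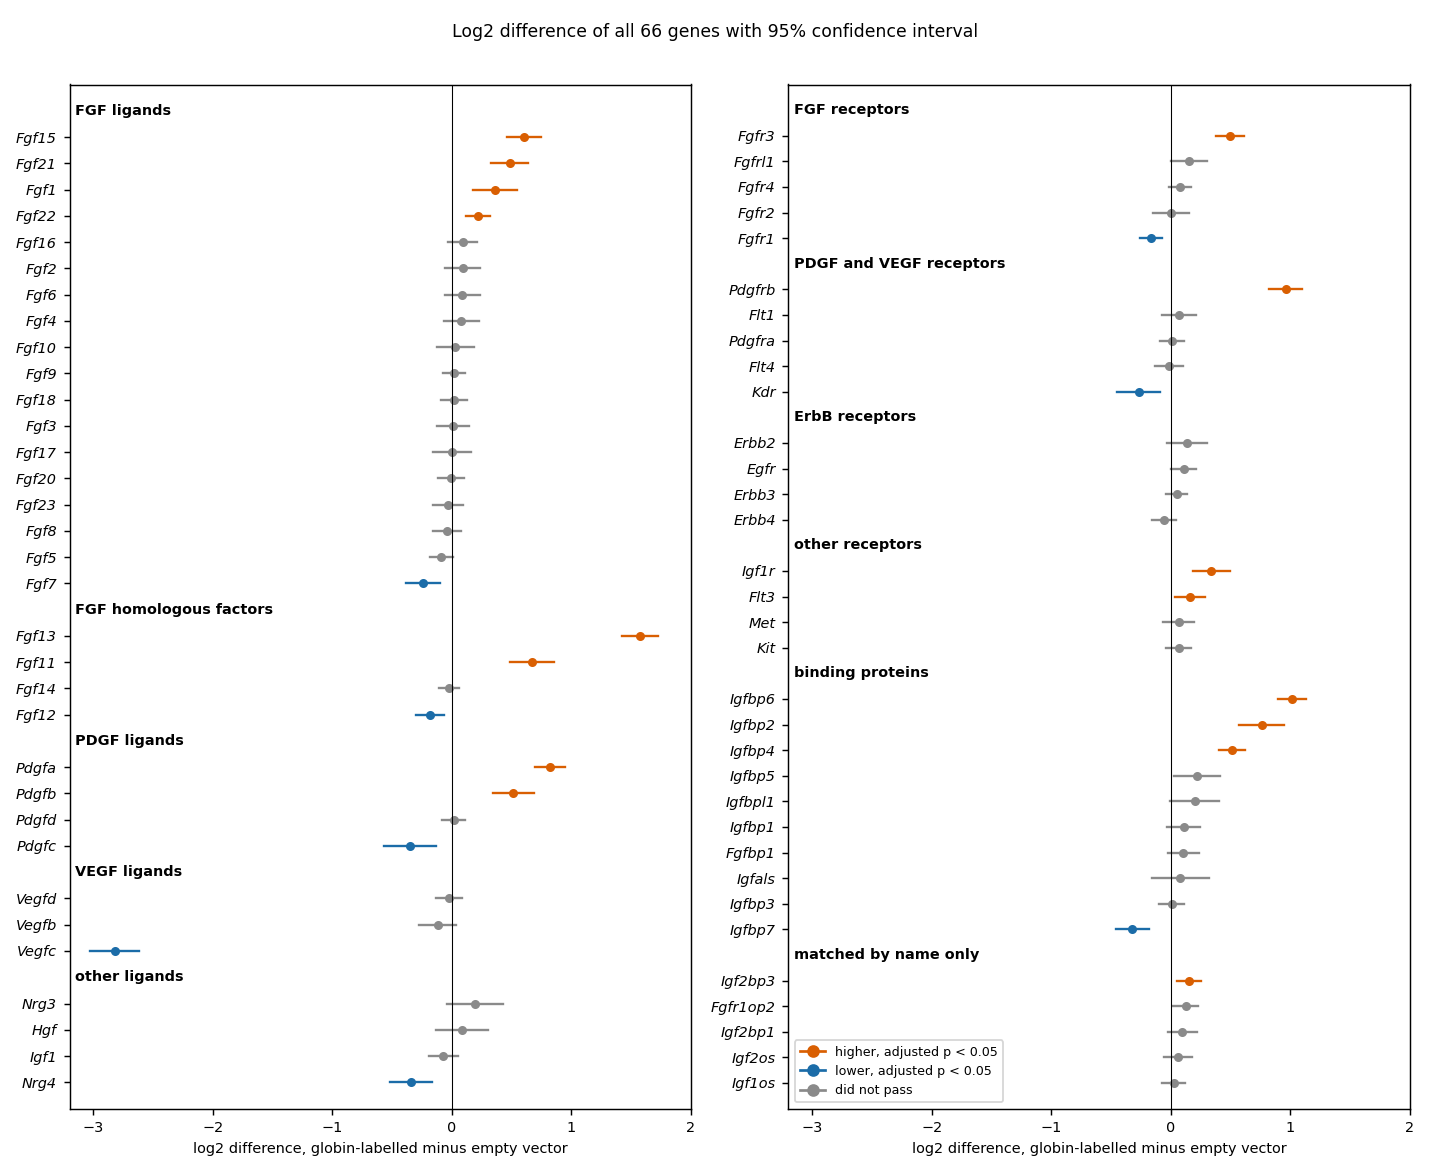
Log2 difference (x axis, globin-labelled minus empty vector) of each of the 66 genes, grouped by role, with points for the estimate and lines for the 95% confidence interval from limma. The 16 genes in orange rose, the 8 in blue fell and the 42 in grey did not pass, and Vegfc lies alone at -2.82.

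Calls were fewer among dim probe sets. Those of 24 of the 66 genes had a mean signal below the 25th percentile of all probe sets (6.84), and of these 1 passed, Nrg4. This is 4.17%, against 10.6% of all genes below that signal. Of the 42 brighter genes 23 passed, or 54.8%, against 49.4% of all genes above that signal. Every one of the 42 genes that did not pass had a 95% confidence interval within a 1.5-fold change in either direction, the outermost bounds being -0.27 and 0.43. For dim probe sets such an interval bounds the change of signal and not that of the transcript, since the background was not measured.

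Among the ligands, the VEGF family held the largest change. Vegfc, which drives lymphatic vessel growth and is also made in the nervous system, had log2 signals of 8.04, 8.02, 8.24 and 7.80 in the globin-labelled arrays, against 10.75, 10.91 and 10.89 in the empty vector arrays. All 4 globin-labelled arrays lay far below the 3 empty vector arrays. The difference was -2.82 ± 0.09 (95% confidence interval -3.03 to -2.62, limma adjusted p = 6.73e-08), and Vegfc has a single probe set on the array. Vegfb, a ligand of Flt1, had 10.83, 10.73, 10.64 and 10.59 in the globin-labelled arrays, against 10.71, 10.91 and 10.84 in the empty vector arrays. Its groups overlapped and its difference of -0.12 ± 0.07 did not pass. Vegfd, the closest relative of Vegfc, differed by -0.02 ± 0.05 and did not pass, and its signal lay at the 19.5th percentile.

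The promoter of Vegfc is shown because it belongs to the gene with the largest change. It is the RefSeq window of 250 bases before to 50 after the start on GRCm38.p6, chr8:54077282-54077581 on the plus strand, read 5′ to 3′. Capitals mark a GC box (GGGCGG) on either strand. GC makes up 70.3% of the window.
Vegfc: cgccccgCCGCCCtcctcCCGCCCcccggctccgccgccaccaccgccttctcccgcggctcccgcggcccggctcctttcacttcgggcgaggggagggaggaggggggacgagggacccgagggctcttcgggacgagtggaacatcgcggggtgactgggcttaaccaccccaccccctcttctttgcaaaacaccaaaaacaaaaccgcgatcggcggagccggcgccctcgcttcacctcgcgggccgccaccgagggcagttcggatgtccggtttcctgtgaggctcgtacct
Both GC boxes lie on the strand opposite to the gene, starting 243 and 232 bases before the start. No match to a TATA box (TATAAA), the core of a hypoxia response element (ACGTG) or an AP-1 site (TGANTCA) was in these letters. Of 27025 promoters in the RefSeq table, 1 window per gene, 35.9% hold a GC box, 14.2% a TATA box, 19.7% the hypoxia core and 7.93% an AP-1 site, counting both strands and any overlap. Of the 53 of the 66 genes with a window 49.1%, 15.1%, 22.6% and 3.77% do.

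PDGF ligands moved both ways. Pdgfa, whose product dimer binds chiefly the alpha receptor, had 9.77, 9.58, 9.73 and 9.64 in the globin-labelled arrays, against 8.78, 8.90 and 8.88 in the empty vector arrays. The groups stood well apart, and the difference of 0.82 ± 0.06 (limma adjusted p = 6.45e-06) was matched by 0.78 ± 0.05 on the gene's other probe set. Pdgfb, the ligand of both PDGF receptors, had 7.98, 8.16, 8.12 and 8.04 in the globin-labelled arrays, against 7.75, 7.47 and 7.46 in the empty vector arrays. It rose by 0.52 ± 0.08 (limma adjusted p = 0.000637), with empty vector array 1 the highest of the controls. The value on the other probe set was 0.18 ± 0.08 (limma adjusted p = 0.0935). Pdgfc, which is secreted in a latent form and must be cleaved, had 7.004, 6.86, 7.25 and 7.17 in the globin-labelled arrays, against 7.55, 7.29 and 7.43 in the empty vector arrays. Its globin-labelled arrays all lay below the controls, though only narrowly, globin-labelled array 3 lying just under empty vector array 2. Pdgfc fell by 0.35 ± 0.10 (limma adjusted p = 0.0166), but the call was lost without empty vector array 1 (-0.29, limma adjusted p = 0.0721) or 3 (-0.35, limma adjusted p = 0.0522). The second Pdgfc probe set differed by -0.02 ± 0.04. Pdgfd, the other latent ligand, had dim signal at the 0.446th percentile and differed by 0.02 ± 0.04.

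Of the 18 FGF ligands 4 rose and 1 fell, or 22.2% and 5.56%, against 20.6% and 20.1% of all genes. Of the 18, 8 had dim probe sets. Fgf15, a hormone-like FGF of gut and embryonic brain, had 7.93, 7.93, 7.88 and 7.79 in the globin-labelled arrays, against 7.16, 7.40 and 7.26 in the empty vector arrays. Fgf21, the metabolic hormone of the same endocrine group, had 7.92, 7.91, 7.87 and 7.99 in the globin-labelled arrays, against 7.39, 7.32 and 7.61 in the empty vector arrays. Both groups of arrays were separate for these genes, which rose by 0.61 ± 0.06 and 0.48 ± 0.07 (limma adjusted p = 7.30e-05 and 0.000445). The third endocrine FGF, Fgf23, had dim signal and differed by -0.04 ± 0.06. Fgf1, the ligand that binds every FGF receptor, had 7.07, 7.10, 7.15 and 7.21 in the globin-labelled arrays, against 6.89, 6.54 and 6.88 in the empty vector arrays. Empty vector array 2 was the lowest of the controls, and the rise of 0.36 ± 0.08 (limma adjusted p = 0.00704) was accompanied by 0.39 ± 0.07 on the second probe set. Fgf22, a synapse-organising FGF, had 8.03, 8.06, 8.07 and 8.17 in the globin-labelled arrays, against 7.85, 7.84 and 7.90 in the empty vector arrays. Its rise of 0.22 ± 0.05 (limma adjusted p = 0.00399) was small, and the value on the second probe set was 0.03 ± 0.04. Fgf7, the keratinocyte growth factor, had 7.13, 7.13, 7.13 and 7.07 in the globin-labelled arrays, against 7.49, 7.37 and 7.21 in the empty vector arrays. It fell by 0.24 ± 0.06 (limma adjusted p = 0.0144), and empty vector array 3 lay nearest to the globin-labelled arrays. Without both empty vector array 1 and globin-labelled array 4 it did not pass (-0.16, limma adjusted p = 0.0912).

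The other 13 FGF ligands did not pass: Fgf2, Fgf3, Fgf4, Fgf5, Fgf6, Fgf8, Fgf9, Fgf10, Fgf16, Fgf17, Fgf18, Fgf20 and Fgf23. Their differences lay between -0.09 and 0.09, with confidence bounds from -0.19 to 0.24. Fgf8, which patterns the midbrain where dopaminergic neurons arise, differed by -0.04 ± 0.05, and Fgf20, which is expressed in the substantia nigra, by -0.01 ± 0.05. Fgf2 had a signal at the 5.60th percentile and differed by 0.09 ± 0.07. Fgf3, Fgf4 and Fgf15 lie next to one another on chromosome 7 among the measured genes, and of these Fgf15 passed.

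The FGF homologous factors have the FGF fold but stay inside the cell, where they bind voltage-gated sodium channels, and 2 of 4 rose while 1 fell. Fgf13, which also binds microtubules in growing neurons, had 7.91, 8.05, 8.03 and 8.09 in the globin-labelled arrays, against 6.56, 6.47 and 6.30 in the empty vector arrays. Every globin-labelled array exceeded every control by more than 1 on the log2 scale, and the difference was 1.58 ± 0.07, or 2.98-fold (limma adjusted p = 3.63e-07). The dimmer Fgf13 probe set, at the 12.4th percentile, rose by 0.30 ± 0.05. Fgf11 had 8.23, 7.91, 8.23 and 8.05 in the globin-labelled arrays, against 7.37, 7.44 and 7.49 in the empty vector arrays. It rose by 0.67 ± 0.08 (limma adjusted p = 0.000171), and its other probe set rose by 0.27 ± 0.07. Fgf12, the relative found in brain and heart, had 8.83, 8.69, 8.83 and 8.72 in the globin-labelled arrays, against 8.90, 8.93 and 9.03 in the empty vector arrays. It fell by 0.18 ± 0.05 (limma adjusted p = 0.0211), and the call was lost without empty vector array 3 (-0.15, limma adjusted p = 0.0797), globin-labelled array 2 (-0.16, limma adjusted p = 0.0561) or globin-labelled array 4 (-0.17, limma adjusted p = 0.0536). Fgf14, whose loss causes ataxia, had dim signal and differed by -0.02 ± 0.04.

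**Figure D2:**
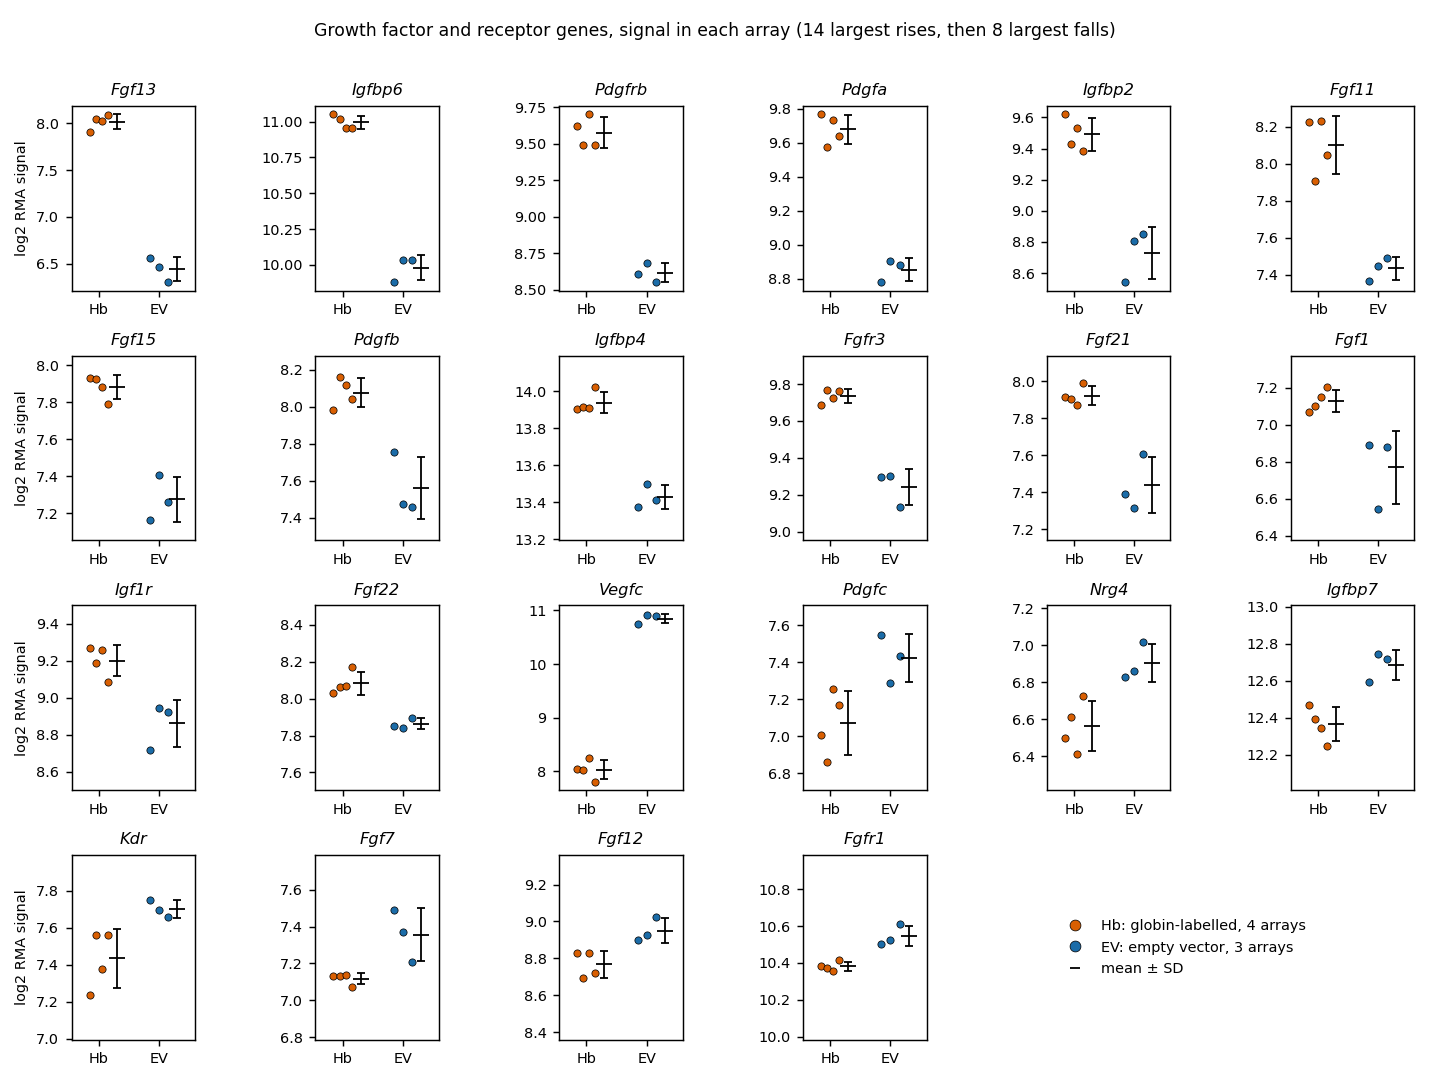
Log2 RMA signal (y axis, a scale of its own for each gene) of the 14 genes with the largest rises and the 8 that fell, with globin-labelled arrays (Hb, orange, 4 arrays) left of empty vector arrays (EV, blue, 3 arrays) and bars for the mean ± SD. The orange and blue points do not overlap in any of the 22 panels, and the gap is widest for Vegfc, whose means are 8.03 in Hb and 10.85 in EV.

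The remaining ligands were dim and 1 of 4 passed. Nrg4, a neuregulin that binds Erbb4, had 6.50, 6.61, 6.41 and 6.73 in the globin-labelled arrays, against 6.83, 6.86 and 7.02 in the empty vector arrays. It fell by 0.34 ± 0.08 (limma adjusted p = 0.00693), at the 23.4th percentile of signal. Nrg3, another Erbb4 ligand, differed by 0.19 ± 0.10 and, of the alternatives run, passed only without globin-labelled array 1 (0.27, limma adjusted p = 0.0485). Hgf, the ligand of Met, differed by 0.08 ± 0.10. Igf1 did not pass on its brightest probe set (-0.07 ± 0.05), whereas the other 2 fell by 0.22 ± 0.07 and fell by 0.22 ± 0.05 (limma adjusted p = 0.0398 and 0.0059).

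Of the 18 receptors 4 rose and 2 fell, or 22.2% and 11.1%, against 20.6% and 20.1% of all genes. Pdgfrb, the beta PDGF receptor of pericytes, fibroblasts and some neurons, had 9.62, 9.49, 9.70 and 9.49 in the globin-labelled arrays, against 8.61, 8.68 and 8.55 in the empty vector arrays. The groups were far apart, with a difference of 0.96 ± 0.06 (limma adjusted p = 4.49e-06), and the second probe set rose by 0.33 ± 0.06. Pdgfra, the alpha receptor, differed by 0.01 ± 0.04, with the same value of 6.42 in all 3 empty vector arrays, and a second, dimmer probe set rose by 0.17 ± 0.05 (limma adjusted p = 0.0269). The ligand genes Pdgfa and Pdgfb and the receptor gene Pdgfrb rose together in the globin-labelled arrays, while Pdgfc fell. Because Pdgfrb also marks mural cells and fibroblasts, 9 markers of those cells were read in the same arrays: 2 rose, Fbln1 and Rgs5, and the summed linear signal of the 9 was 5560 to 5830 in the globin-labelled arrays, against 3740 to 3920 in the empty vector arrays. Fbln1 alone held 4110 to 4470 of this in the globin-labelled arrays, against 2440 to 2660 in the empty vector arrays, and the other 8 markers summed to 1370 to 1500 in the globin-labelled arrays, against 1240 to 1300 in the empty vector arrays. The median difference over all 9 was 0.08. The collagen genes Col1a1, Col1a2 and Col3a1 and Lum lay below the 25th percentile, and the part of such cells in the result was not tested.

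Of the 3 VEGF receptors Kdr passed. Kdr, the main endothelial VEGF receptor, had 7.24, 7.56, 7.38 and 7.56 in the globin-labelled arrays, against 7.75, 7.70 and 7.66 in the empty vector arrays. It fell by 0.27 ± 0.08 (limma adjusted p = 0.0247), with a wide spread among the globin-labelled arrays, and the call was lost without empty vector array 1 (-0.24, limma adjusted p = 0.0849), empty vector array 2 (-0.27, limma adjusted p = 0.0648) or globin-labelled array 3 (-0.25, limma adjusted p = 0.0627). Flt4, the receptor for Vegfc, differed by -0.02 ± 0.05 (95% confidence interval -0.13 to 0.10), and Flt1 by 0.07 ± 0.06. Of 8 endothelial markers Vwf rose and Esam fell, and 6 lay below the 25th percentile: Vwf itself, Pecam1, Cdh5, Tek, Tie1 and Emcn. Their summed linear signal was 771 to 838 in the globin-labelled arrays, against 803 to 844 in the empty vector arrays, and their part in the result was not tested. Kdr, Pdgfra and Kit are neighbours on chromosome 5, and of these Kdr passed.

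Among the FGF receptors Fgfr3 rose and Fgfr1 fell. Fgfr3 had 9.69, 9.77, 9.73 and 9.76 in the globin-labelled arrays, against 9.30, 9.30 and 9.13 in the empty vector arrays. The groups did not overlap, and the difference was 0.49 ± 0.05 (limma adjusted p = 7.82e-05), although the second probe set, at 0.18 ± 0.07, did not pass (limma adjusted p = 0.053). Fgfr1, the main FGF receptor of neurons, had 10.38, 10.37, 10.36 and 10.42 in the globin-labelled arrays, against 10.50, 10.52 and 10.61 in the empty vector arrays. It fell by 0.16 ± 0.04 (limma adjusted p = 0.0115), a small change that the other probe set shared (-0.20 ± 0.05). Fgfr2 and Fgfr4 differed by 0.00 ± 0.07 and 0.08 ± 0.04, and Fgfrl1, a receptor that lacks the kinase, by 0.15 ± 0.07. Fgfrl1 passed without both empty vector array 1 and globin-labelled array 4 (0.15, limma adjusted p = 0.0332).

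The 4 ErbB receptors did not pass in limma, where 0 had an unadjusted p under 0.05, or in the plain linear model, where 0 passed. Egfr differed by 0.11 ± 0.05, Erbb2 by 0.14 ± 0.07, Erbb3 by 0.05 ± 0.04 and Erbb4 by -0.06 ± 0.05, and the widest interval, that of Erbb2, ran from -0.03 to 0.30. Without globin-labelled array 1 Erbb2 passed (0.20, limma adjusted p = 0.0224). Of the other 4 Egfr probe sets 1, at the 9.55th percentile, rose by 0.27 ± 0.08.

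Igf1r, the receptor through which IGF1 promotes growth and survival, had 9.27, 9.19, 9.26 and 9.09 in the globin-labelled arrays, against 8.72, 8.95 and 8.93 in the empty vector arrays. All globin-labelled arrays lay above the controls, and the rise was 0.34 ± 0.07 (limma adjusted p = 0.00340), while a dim second probe set differed by -0.02 ± 0.05. Flt3, a receptor of blood progenitors, rose by 0.16 ± 0.06 (limma adjusted p = 0.0438). The call for Flt3 was lost without empty vector array 1 (0.15, limma adjusted p = 0.115), 2 (0.17, limma adjusted p = 0.0848) or 3 (0.17, limma adjusted p = 0.0901), and without globin-labelled array 3 (0.16, limma adjusted p = 0.0866) or 4 (0.12, limma adjusted p = 0.0672). Of 8 blood and microglia markers Tyrobp rose by 0.19 ± 0.06 and Cd68 fell by 1.25 ± 0.09. Ptprc, Cx3cr1, Itgam and Aif1 lay below the 25th percentile. The sums of the 8 were 908 to 947 in the globin-labelled arrays, against 1070 to 1130 in the empty vector arrays. The median difference over the 8 was 0.01. The part of such cells in the result was not tested. Met, the receptor of Hgf, and Kit, the receptor of stem cell factor, differed by 0.07 ± 0.06 and 0.07 ± 0.05 at dim signal.

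Of the 10 binding proteins 3 rose and 1 fell, or 30.0% and 10.0%, against 20.6% and 20.1% of all genes. The 4 that passed are IGF binding proteins. Igfbp6, a secreted IGF carrier, had 11.05, 11.02, 10.95 and 10.96 in the globin-labelled arrays, against 9.88, 10.03 and 10.03 in the empty vector arrays. The groups were far apart, with a difference of 1.01 ± 0.05 (2.02-fold, limma adjusted p = 1.11e-06). Igfbp2, abundant in the developing brain, had 9.62, 9.43, 9.53 and 9.39 in the globin-labelled arrays, against 8.54, 8.80 and 8.85 in the empty vector arrays. The groups were separate and the rise was 0.76 ± 0.08 (limma adjusted p = 9.99e-05). Igfbp4, an inhibitor of IGF action that is cleaved by the protease Pappa, had 13.90, 13.92, 13.91 and 14.02 in the globin-labelled arrays, against 13.37, 13.50 and 13.41 in the empty vector arrays. It rose by 0.51 ± 0.05 (limma adjusted p = 4.29e-05) on its brightest probe set, at the 98.5th percentile of signal. Its other 5 probe sets also rose, by 0.67 to 1.01, so that the brightest of the 6 gave the smallest difference. Igfbp7, which binds IGFs weakly and is deposited in vessel walls, had 12.47, 12.39, 12.35 and 12.25 in the globin-labelled arrays, against 12.59, 12.75 and 12.72 in the empty vector arrays. It fell by 0.32 ± 0.06 (limma adjusted p = 0.00245), at the 93.7th percentile, while its other probe sets differed by 0.03 ± 0.04 and -0.19 ± 0.07 and did not pass.

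**Figure D3:**
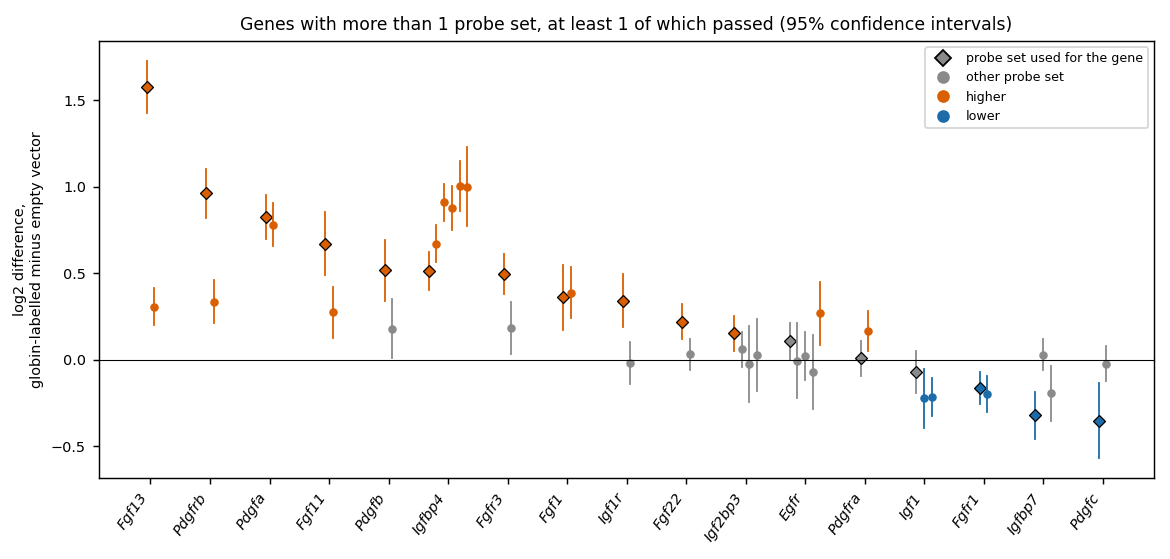
Log2 difference (y axis, globin-labelled minus empty vector, with 95% confidence intervals) of every probe set of the 17 genes that have over 1 probe set and at least 1 that passed. Diamonds mark the probe set used for the gene, orange and blue those that rose and fell, and grey those that did not pass. The 6 Igfbp4 probe sets lie between 0.51 and 1.01, and those of Fgf13 lie at 1.58 and 0.30.

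The promoters of 3 IGF binding protein genes with a single RefSeq window are shown to set the 2 that rose, Igfbp4 and Igfbp6, beside Igfbp7, which fell, a choice that followed from their values. They are chr11:99040994-99041293 and chr15:102143936-102144235 on the plus strand and chr5:77407996-77408295 on the minus strand of GRCm38.p6, each read 5′ to 3′ along the gene. Capitals mark the GC box, the TATA box and the hypoxia core, searched as for Vegfc, and the windows hold 71.3%, 49.7% and 73.3% GC.
Igfbp4: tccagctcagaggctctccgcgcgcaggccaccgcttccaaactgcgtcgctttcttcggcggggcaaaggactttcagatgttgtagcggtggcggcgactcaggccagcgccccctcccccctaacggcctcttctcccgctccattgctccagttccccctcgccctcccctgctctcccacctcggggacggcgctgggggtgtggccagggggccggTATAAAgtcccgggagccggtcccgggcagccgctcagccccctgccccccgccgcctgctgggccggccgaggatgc
Igfbp6: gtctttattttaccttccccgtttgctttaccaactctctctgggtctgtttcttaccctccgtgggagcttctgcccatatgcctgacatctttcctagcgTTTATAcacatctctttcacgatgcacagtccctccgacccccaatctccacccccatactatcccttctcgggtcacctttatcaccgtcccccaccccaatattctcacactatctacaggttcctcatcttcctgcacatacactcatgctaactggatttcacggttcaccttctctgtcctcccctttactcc
Igfbp7: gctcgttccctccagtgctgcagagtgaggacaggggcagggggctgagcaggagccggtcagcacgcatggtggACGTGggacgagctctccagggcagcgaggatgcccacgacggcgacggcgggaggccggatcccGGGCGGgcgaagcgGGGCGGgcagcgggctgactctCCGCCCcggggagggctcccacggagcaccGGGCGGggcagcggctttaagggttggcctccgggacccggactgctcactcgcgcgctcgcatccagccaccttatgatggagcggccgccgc
A TATA box on the gene's strand starts 28 bases before the start of Igfbp4, and Igfbp6 holds the same letters on the opposite strand, starting 148 bases before the start. Igfbp7 holds 4 GC boxes, starting 110, 96, 74 and 44 bases before the start, and 1 hypoxia core. Igfbp2, which also rose, has 2 windows and is not shown. Of these, 1 holds 3 GC boxes, no TATA box and 2 hypoxia cores, which overlap on opposite strands. The other holds none of the motifs marked here, but 1 AP-1 site, starting 39 bases before the start. Such a window was at hand for 12 of the 16 genes that rose and 7 of the 8 that fell, and the first listed was counted. Fgf13 has 4 windows, of which the first holds no GC box while others hold 4. With 1 window per gene, 6 of 12 genes that rose and 4 of 7 that fell held a GC box. For the TATA box these were 3 of 12 and 0 of 7, and for the hypoxia core 4 of 12 and 2 of 7. Whether the motifs bear on the direction of change was not tested.

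The other 6 binding proteins did not pass. Igfbp5, the neighbour of Igfbp2 on chromosome 1, differed by 0.22 ± 0.09 (95% confidence interval 0.03 to 0.42). It passed without empty vector array 1 (0.33, limma adjusted p = 0.00532) or globin-labelled array 1 (0.26, limma adjusted p = 0.0497). Igfbpl1 differed by 0.20 ± 0.09 and passed without empty vector array 2 (0.30, limma adjusted p = 0.0177). Igfbp1, Igfbp3 and the FGF carrier gene Fgfbp1 had dim signal and differed by 0.11 ± 0.06, 0.01 ± 0.05 and 0.11 ± 0.06. Igfals, which holds IGFs in their large serum complex, differed by 0.08 ± 0.11.

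Of the genes that share only the name, Igf2bp3, an oncofetal RNA-binding protein, had 10.93, 10.83, 10.91 and 10.91 in the globin-labelled arrays, against 10.72, 10.82 and 10.71 in the empty vector arrays. It rose by 0.15 ± 0.04 (limma adjusted p = 0.0241) on 1 of 4 probe sets. The call was lost without empty vector array 1 (0.14, limma adjusted p = 0.0713) or 3 (0.13, limma adjusted p = 0.0804), or without globin-labelled array 1 (0.14, limma adjusted p = 0.0581), 3 (0.15, limma adjusted p = 0.0581) or 4 (0.15, limma adjusted p = 0.0528). Fgfr1op2 had 11.31, 11.43, 11.41 and 11.36 in the globin-labelled arrays, against 11.31, 11.25 and 11.21 in the empty vector arrays. The arrays did not overlap, though 1 array of each group was almost level, and its difference of 0.12 ± 0.05 did not pass (limma adjusted p = 0.0574). It passed without empty vector array 1 (0.15, limma adjusted p = 0.0464) or globin-labelled array 1 (0.15, limma adjusted p = 0.0369). The other Fgfr1op2 probe sets differed by -0.25 ± 0.09 (limma adjusted p = 0.0528), the opposite direction, and by 0.003 ± 0.04, and did not pass. Igf2bp1, Igf1os and Igf2os differed by 0.09 ± 0.05, 0.02 ± 0.04 and 0.06 ± 0.05.

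Probe sets of a gene often differed in size of change but not in direction of calls. Of 34 genes with over 1 probe set 14 passed on the one used. In 7 of these another probe set passed in the same direction, and no gene had calls in opposite directions. Of the 20 that did not pass, 3 had another probe set that did, namely Egfr, Pdgfra and Igf1. Whole repeated values were common in the deposited table: 31 of the 66 genes had the same value to every digit in at least 2 of the 7 arrays, as had 36.3% of all probe sets, and among the 24 that passed 3 did.

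For the position of these genes, the 5 nearest measured genes on either side on GRCm38.p6 were read for each. Around Vegfc 3 of 10 neighbours fell, 1 rose and 6 did not pass (median -0.01), and around Fgf13 2 of 10 fell and 8 did not pass (median 0.01). Around Pdgfrb 4 of 10 fell and 6 did not pass, and around Fgfr3 6 of 10 fell, whereas both genes rose. Around Pdgfa 6 of 10 neighbours rose and 4 did not pass (median 0.19). Around Igfbp6 4 of 10 rose, and around Pdgfb 4 of 10. Across all genes 20.6% rose and 20.1% fell. Genes that did not pass had such neighbours as well. Around Vegfb 8 of 10 rose (median 0.235), and around Igfbpl1 7 of 10 fell (median -0.27).

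Other genes of these pathways were read from lists that hold none of the 66. Of 13 other growth factor ligands 4 rose and 2 fell, or 30.8% and 15.4%, against 20.6% and 20.1% of all genes. Ptn, the heparin-binding pleiotrophin, rose by 2.12 ± 0.08, and Pgf, a VEGF relative that binds Flt1, rose by 0.76 ± 0.06 (limma adjusted p = 1.65e-07 and 1.14e-05). Gas6, a ligand of the Axl, Tyro3 and Mertk receptors, fell by 0.90 ± 0.05 (limma adjusted p = 1.38e-06). Pros1, a ligand of Tyro3 and Mertk, fell by 0.82 ± 0.06 (limma adjusted p = 1.01e-05). Of 6 EGF family ligands 1 passed, or 16.7%, against 40.7% of all genes. This was Egf, with a rise of 0.22 ± 0.07 at the edge of the threshold (limma adjusted p = 0.0449). The Egf call was lost without empty vector array 2 (0.21, limma adjusted p = 0.117) or 3 (0.15, limma adjusted p = 0.162), or without any 1 of globin-labelled arrays 1 to 4 (limma adjusted p = 0.0536, 0.0561, 0.0827 and 0.102, at 0.24, 0.24, 0.22 and 0.17).

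Of 19 other receptor tyrosine kinases 5 rose and 2 fell, or 26.3% and 10.5%, against 20.6% and 20.1% of all genes. Rises were 0.71 ± 0.07 for Alk, 0.67 ± 0.10 for Axl, 0.60 ± 0.06 for the insulin receptor relative Insrr and 0.58 ± 0.10 for Ptk7. Axl had dim signal, at the 24.9th percentile, and its other probe set did not pass. Tyro3 fell by 0.31 ± 0.07 and Mst1r, the receptor of macrophage-stimulating protein, fell by 0.19 ± 0.06 (limma adjusted p = 0.00699 and 0.0328). Only 1 fall was called without empty vector array 1 or 2 or without globin-labelled array 2, 3 or 4. Of 21 co-receptors and heparan sulphate carriers and enzymes 6 rose and 4 fell, or 28.6% and 19.0%, against 20.6% and 20.1% of all genes. Of the 4 syndecan genes Sdc1 rose by 0.43 ± 0.04 and Sdc3 fell by 0.45 ± 0.04, while Sdc2 and Sdc4 differed by 0.10 ± 0.07 and 0.03 ± 0.08 and did not pass. The glypican gene Gpc3 and Lrig1, an inhibitor of ErbB receptors, rose by 0.55 ± 0.06 and 0.41 ± 0.04. Of 32 adaptors and proximal signalling genes 6 rose and 8 fell. Grb10, which dampens insulin and IGF1 receptors, rose by 1.51 ± 0.07 (limma adjusted p = 4.80e-07), and Grb2, which joins receptors to the Ras activator Sos, fell by 0.77 ± 0.05 (limma adjusted p = 6.14e-06).

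Of 20 ERK feedback and target genes 12 rose and 4 fell, with a median difference of 0.24. These are 60.0% and 20.0% of the list, against 20.6% and 20.1% of all genes, so the share that fell was that of the array. The rises included Egr1 by 1.43 ± 0.05, the receptor signalling inhibitor Spry1 by 1.08 ± 0.04, the ERK phosphatase Dusp6 by 0.73 ± 0.04 and Ier2 by 0.70 ± 0.06. Of 21 proteases and related genes that process growth factors 4 rose and 4 fell, or 19.0% each, against 20.6% and 20.1% of all genes. The convertase gene Pcsk6 and the sheddase gene Adam19 rose by 0.78 ± 0.05 and 0.73 ± 0.06, while the plasminogen activator gene Plat, whose product cleaves latent Pdgfc, and the urokinase receptor gene Plaur fell by 0.81 ± 0.07 and fell by 0.68 ± 0.06. Over all 7 lists 38 of 132 genes rose and 24 fell, with a median difference of 0.04. These are 28.8% and 18.2%, against 20.6% and 20.1% of all genes.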

How the data were processed

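Biotin-labelled RNA of 7 MN9D samples was read on Affymetrix mouse 430A 2.0 arrays, per the labels' protocols. The deposited log2 signals were computed by the authors with RMA, which the submitters' processing notes name. RMA brings arrays to a common distribution and so hides a shift of nearly all transcripts. Array medians lay between 8.90 and 8.94, arrays carry no read depth, and their number limits the precision. Leaving aside 64 controls of 22690 probe sets, 22626 were fitted with limma 3.58.1 in R 4.3.3 (lmFit and eBayes, two-sided, with the group alone in the model). Benjamini-Hochberg adjustment ran over all 22626, and calls were made at an adjusted p under 0.05. There were 5 residual and, after moderation, 9.10 degrees of freedom. Gene symbols came from the platform annotation, which gave 1 symbol for 20380 probe sets, several for 691 and left 1555 unnamed. Gene neighbours and promoters came from RefSeq tables of GRCm38.p6. The fit was tested on simulated data. The genes, lists and markers were chosen with earlier results of these data known. Values in every array are given for up to 14 genes with the largest rise, 14 with the largest fall and the 6 with the highest mean, and up to 4 changed genes per list are named by smallest p, while other genes were named after their values were seen. Alternatives were leaving out each array, a replicate block, quantile normalization, median centring, a filter on probe sets below the 25th percentile, other eBayes settings, a plain linear model and the probe set with the largest SD.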

Additional observations from a re-analysis of the deposited data

Results flagged for a closer look

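In each of the 66 genes the 4 globin-labelled arrays were read for 1 array far from the others, by Dixon's ratio of the gap to the whole range, at its 95% critical value. For independent values without ties, chance gives about 1 such array in 20 groups. The 66 genes share the same 4 arrays and many values repeat, so the 13 found cannot be set against that rate. Globin-labelled array 4 stood highest for Fgf9 (1.0), Fgfrl1 (0.9836), Igf2os (0.9445), Igfbp4 (0.8967), Fgfr2 (0.8807) and Igfbpl1 (0.8604), and lowest for Fgf7 (0.9167). Array 1 was lowest for Fgf14 (1.0) and Fgf23 (0.8953). Array 2 was lowest for Fgf5 (1.0) and Igf2bp3 (0.8302) and highest for Igf1os (1.0). Array 3 was lowest for Fgf18 (1.0). In 9 of these 13 genes the deposited values repeat exactly between arrays, and a ratio of 1 in 5 of them means that the other 3 arrays held one value. Of the 13 genes Igfbp4, Igf2bp3 and Fgf7 had passed. The log2 signal of Igfbp4 in array 4 was 14.02, against 13.90 to 13.92 in the other globin-labelled arrays.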

How the results depend on the processing

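The counts of 16 rises and 8 falls among the 66 genes were 14 to 19 and 6 to 8 when single arrays were left out, and 16 genes passed under each of the 14 alternatives that refit a gene's own probe set, where their probe set was tested. No call changed direction. Falls were the less stable: 5 remained called with the replicate number as a block, 4 in the plain linear model, and 4 without both empty vector array 1 and globin-labelled array 4, against 8, while rises numbered 14, 14 and 16. The block could use only numbers 1 to 3 and left out globin-labelled array 4, so it had fewer arrays. Whether replicate numbers pair the samples is not in the labels. The deviations of same-numbered arrays from their group means correlated at -0.36, -0.30 and -0.14. These values cannot decide it, since deviations within a group must cancel out. With the block Fgf7, Fgfr1, Fgf12, Flt3 and Igf2bp3 lost their calls (limma adjusted p = 0.0562, 0.0682, 0.0888, 0.183 and 0.148). In the plain linear model, which does not pool the spread, Fgf1, Fgf7, Fgf12, Flt3, Kdr and Pdgfc lost theirs. Quantile normalization and the other eBayes settings cost the call of Flt3. Fgfr1op2 gained one under these settings, median centring and the filter on dim probe sets. Among the pathway lists, the block left 0 of 2 falls of other receptor tyrosine kinases and 4 of 8 falls of adaptors, and the plain linear model left 1 of those 2. The probe set with the largest SD gave 17 rises and 9 falls. Dim signal limits what 24 of the 66 genes can show.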
